A study of Mus musculus with 6 samples.

Results

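The proteasome genes of B16F10luc2 mouse melanoma cells were compared between static culture and cyclic stretch. Members were all protein-coding mouse genes whose symbol begins Psma, Psmb, Psmc, Psmd, Psme, Psmf or Psmg and goes on with a digit, without the immunoproteasome genes Psmb8, Psmb9 and Psmb10. RefSeq listed 48 such genes, and 47 of the 14883 genes in the table were members. Psma8 was not analysed here. The cells are an established line that carries a luciferase reporter. They grew on elastic culture plates in DMEM with 10% serum, at 37°C, 21% O2 and 5% CO2. The 3 static samples stayed unstretched on the same kind of plate. The 3 stretched samples were elongated by 15% in both directions of the plane, 15 times per minute, with equal times of stretch and relaxation, for 24 h. Whether the 3 replicates of a group came from separate cultures is not stated, so the p-values reflect sample-to-sample spread that could be purely technical.

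The proteasome is the protease complex that degrades proteins marked with ubiquitin. Its core is a barrel of alpha rings, which gate the entrance, and beta rings, which carry the protease sites. Its cap recognises ubiquitin, removes it, and unfolds and feeds the substrate with a ring of ATPases. Other activators can bind the core in place of the cap, and dedicated chaperones assemble both parts. When proteasome activity is short, the transcription factor NRF1, product of Nfe2l1, raises the transcription of most subunit genes together. Tumour cells, melanoma cells among them, make much protein and rely on this complex.

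Libraries held 19469286 to 36351400 counts. All 8 melanocyte lineage markers checked were in the table, with summed levels of 23091 to 25592 CPM in static and 20550 to 21174 CPM in stretched libraries. CPM are counts scaled to library size with TMM factors. Of these markers 3 fell and 1 rose, and their part in the results below was not tested. Of 6 fibroblast markers 5 were in the table, with sums of 13.3 to 18.4 CPM in static and 16.0 to 17.3 CPM in stretched libraries. The table held 2 of 6 leukocyte, 1 of 4 endothelial and 1 of 4 epithelial markers, each set with sums of at most 1.44 CPM in any library. In such bulk samples, fewer cells of a type and less RNA per cell cannot be told apart. The groups differed broadly: 50.9% of the 12377 tested genes were called, 24.9% higher and 25.9% lower under stretch. A gene was called when its adjusted p in edgeR's quasi-likelihood test, adjusted by Benjamini-Hochberg over all tested genes, was under 0.05.

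Proteasome genes moved little under stretch, and in both directions. Of the 46 tested members 13 rose, 8 fell and 25 were not called, so that 45.7% were called against 50.9% of all tested genes. The higher members made up 28.3% of those tested and the lower ones 17.4%, beside backgrounds of 24.9% and 25.9%. The median log2 fold change of the members was 0.02, and that of all tested genes was 0.0038. The summed level of the members was 6284, 6428 and 6155 CPM in static replicates 1, 2 and 3, and 6183, 6295 and 6304 CPM in stretched replicates 1, 2 and 3. These sums overlapped between the groups. Groups did not overlap for 22 members (47.8%), against 58.5% of all tested genes. They were higher under stretch for 14 and lower for 8, beside 29.0% and 29.4% of all tested genes.

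The changes that were called were small. Called members differed by 1.07-fold to 1.28-fold, with a median of 1.11-fold, beside a median of 1.21-fold over all called genes. When glmTreat of edgeR asked for changes beyond 1.2-fold, 0 of the 46 members were called, beside 12.9% of all tested genes (5.49% higher and 7.38% lower). Only Psme2 had an unadjusted p under 0.05 in that test (1 of 46). The 95% interval of the change lay wholly within 1.2-fold in either direction for 35 of the 45 members with a mean of at least 10 CPM in both groups (77.8%). Of all genes at that level 51.4% had such an interval. Beyond that minimum the genes were not matched for level, and intervals narrow with more counts. The median folds above were not matched for level either. Among the 25 members that were not called, 22 had an interval within 1.2-fold.

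**Figure D1:**
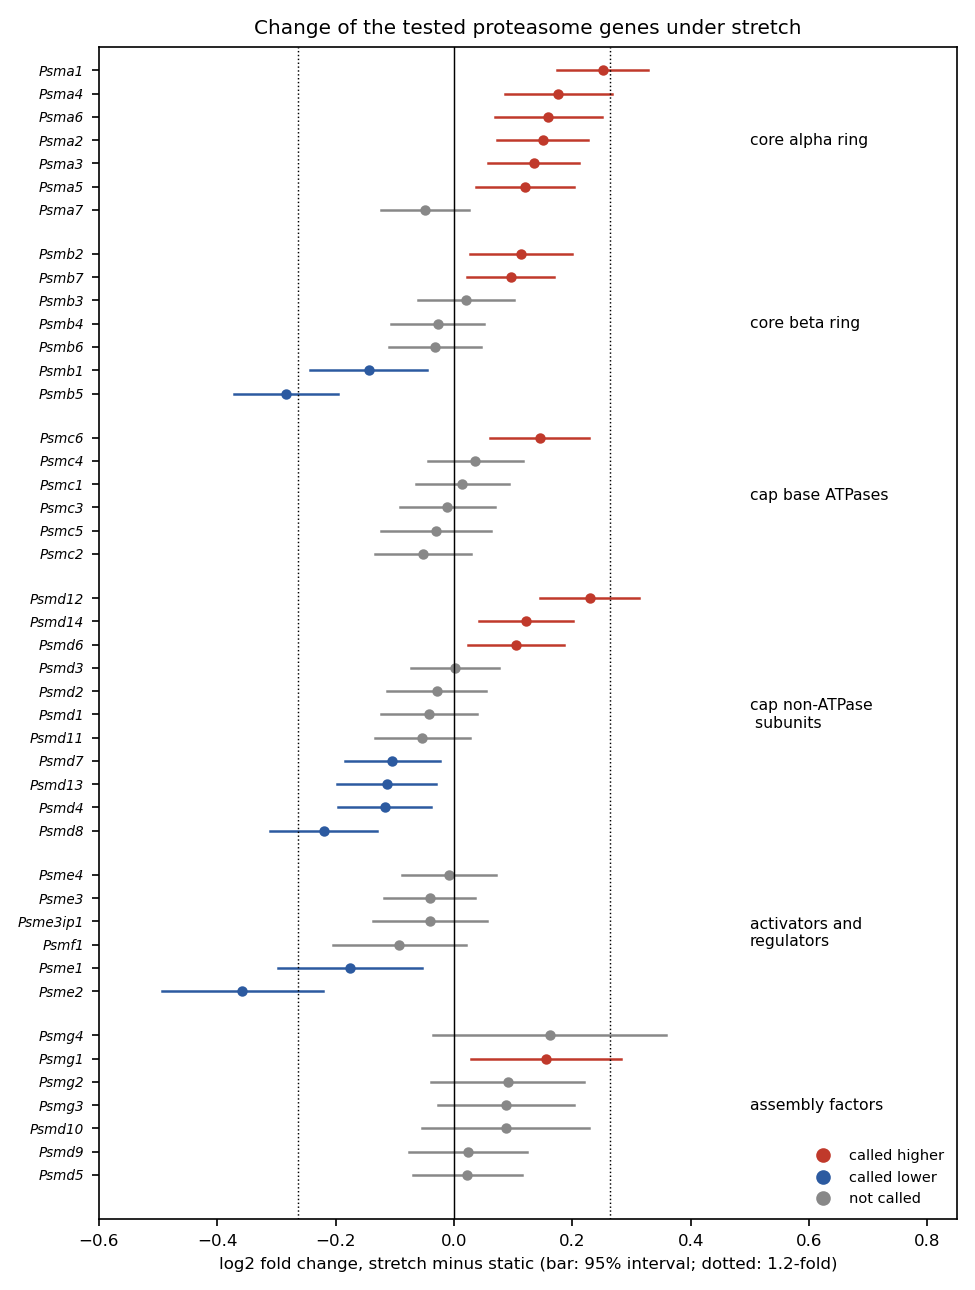
Log2 fold change of the tested members, stretch minus static, with 95% intervals, sorted within 6 classes; red was called higher, blue lower and grey not called, and dotted lines mark 1.2-fold. The thymus-type gene Psmb11 (0.533 CPM in static cells) and Psmc3ip are not drawn. In the alpha ring 6 of 7 genes lie right of 0 as calls, and the 2 called activator genes lie left of it.

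By the 4 parts of the complex, the core had 8 higher (53.3%) and 2 lower genes (13.3%) of 15 tested. Its median log2 fold change was 0.11. The cap had 4 higher and 4 lower of 17 (23.5% each, median -0.03). Of 6 tested activators and regulators 2 fell (33.3%) and none rose (median -0.07). Of 7 assembly factors 1 rose (14.3%) and none fell (median 0.09). Among all tested genes 24.9% were called higher and 25.9% lower, shares near those of the cap. These medians are descriptions, since genes of a class are not replicates, and the differences between the classes were not tested. With library size as the only scaling, the median of all genes moved from 0.0038 to 0.0636 and that of the cap became 0.03. With that scaling 17 members were called higher and 3 lower, beside 33.3% and 19.4% of all tested genes.

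The alpha ring genes encode the outer rings of the core, whose tails close the entrance to the chamber. In this class 6 of 7 genes rose (85.7%, beside 24.9% of all tested genes), by 1.09-fold to 1.19-fold, and none fell. Psma1 (Entrez Gene 26440; chromosome 7, 114264550 to 114276116 in GRCm38) had levels of 119.6, 121 and 123 CPM in the static and 146.1, 146.7 and 140.5 CPM in the stretched libraries. All 3 stretched libraries lay above all static ones. Its log2 fold change was 0.25 (SE 0.036, adjusted p = 4.091e-05), the largest gain among the called members.

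The other called alpha genes shared this direction at smaller size. Psma4 was at 100.4, 99.7 and 94.1 CPM in static and 108.0, 107.8 and 116.7 CPM in stretched libraries (log2 fold change 0.18, adjusted p = 0.00295). Psma2 was at 92.8, 96.9 and 94.7 CPM and then at 104.6, 106.8 and 104.0 CPM (0.15, adjusted p = 0.00299). Psma6 was at 103.5, 106.9 and 102.2 CPM and then at 111.3, 123.2 and 114.8 CPM (0.16, adjusted p = 0.00575). In none of these did the groups overlap. Psma3 and Psma5 rose with log2 fold changes of 0.13 and 0.12. Psma5 was not called without static replicate 1 or 3 or without stretch replicate 2 or 3 (adjusted p = 0.054 to 0.0804).

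Psma7 was the 1 alpha gene that was not called. It was at 167.1, 172.0 and 172.1 CPM in static and 164.3, 167.7 and 162.1 CPM in stretched libraries, so that the groups overlapped. Its log2 fold change was -0.05 with a 95% interval of -0.12 to 0.03, and 0.04 with an offset for GC content and length.

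GC content moved with these calls. The 13 higher members had a median GC content of 44.98% in their longest transcript, the 8 lower ones 52.8% and the 25 not called 50.4%. Across the 46 tested members, GC content and log2 fold change had a Pearson correlation of -0.40, and across 12280 tested genes one of -0.23. With this offset, fitted per library, 2 alpha genes stayed called, Psma1 (log2 fold change 0.16, adjusted p = 0.00236) and Psma5 (0.10, adjusted p = 0.0353). The median of the alpha ring was then 0.09 in place of 0.15, and Psma2 and Psma3 had values of 0.03 each. Over all members 4 were called higher and 8 lower with this offset, beside 22.8% and 24.9% of all tested genes. The offset takes GC content and length from the longest transcript, which for Psma2 (2911 bases) and Psma3 (2846 bases) is much longer than the coding sequence (702 and 765 bases), and which transcript these cells use was not tested.

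**Figure D2:**
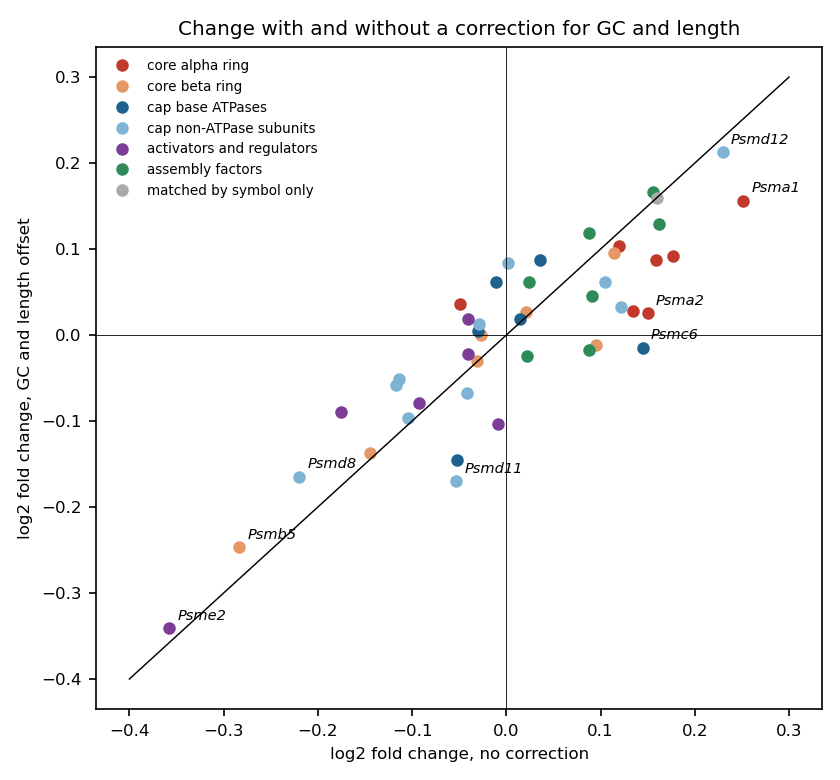
Log2 fold change of the tested members without (x axis) and with (y axis) the offset for GC content and length, coloured by class, with the line of equal values; Psmb11 is not drawn. Psmd12, Psmb5, Psmd8 and Psme2 lie near the line, while Psma2 and Psmc6 move to near 0 and Psmd11 moves from -0.05 to -0.17.

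Promoter sequence was available for all 7 alpha genes of the table. The window ran from 250 bases before to 50 bases after each annotated start, from RefSeq on GRCm38.p6, and was searched on both strands for the CCAAT box, the site of the factor NF-Y. The letters were present in 5 of these 7 genes (Psma1, Psma2, Psma3, Psma6 and Psma7) and absent from the windows of Psma4 and Psma5. Of the 11665 genes of the table with such a window, 42.9% held them, and of 40 member genes 37.5% did. The windows are shown because the alpha genes other than Psma7 were called higher without the offset. The matches did not follow these calls: Psma7 holds a match, while Psma4 and Psma5, which rose, hold none. A match is a description and not a site shown to be bound. Each line reads 5′ to 3′ along the gene, with the match in capitals (a reverse match reads ATTGG), and 2 further matches of Psma3 after its start are not printed.
Psma1 (- strand gene, match in reverse orientation, chr7:114276218-114276262): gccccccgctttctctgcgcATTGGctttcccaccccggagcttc
Psma1 (- strand gene, match in forward orientation, chr7:114276190-114276234): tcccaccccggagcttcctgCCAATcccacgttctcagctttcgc
Psma2 (+ strand gene, match in forward orientation, chr13:14613168-14613212): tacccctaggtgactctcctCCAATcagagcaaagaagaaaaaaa
Psma3 (+ strand gene, match in forward orientation, chr12:70974464-70974508): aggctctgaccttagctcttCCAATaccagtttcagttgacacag
Psma6 (+ strand gene, match in reverse orientation, chr12:55384066-55384110): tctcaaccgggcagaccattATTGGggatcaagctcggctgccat
Psma6 (+ strand gene, match in forward orientation, chr12:55384173-55384217): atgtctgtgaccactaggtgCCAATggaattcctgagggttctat
Psma7 (- strand gene, match in forward orientation, chr2:180042636-180042680): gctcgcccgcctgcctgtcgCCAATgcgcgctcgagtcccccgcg
The whole window of Psma1, the alpha gene with the largest gain, holds 2 of these matches in capitals.
Psma1 (- strand gene, chr7:114276067-114276366): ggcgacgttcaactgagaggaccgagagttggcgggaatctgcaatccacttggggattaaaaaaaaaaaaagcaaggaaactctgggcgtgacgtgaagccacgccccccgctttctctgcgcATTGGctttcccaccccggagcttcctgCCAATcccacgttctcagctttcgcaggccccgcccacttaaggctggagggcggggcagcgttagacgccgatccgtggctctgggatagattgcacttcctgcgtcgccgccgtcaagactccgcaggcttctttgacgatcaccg

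Of the 8 beta ring genes 2 rose and 2 fell (25% each), shares near the 24.9% and 25.9% of all tested genes. Psmb5 and Psmb1 fell, Psmb2 and Psmb7 rose, and Psmb3, Psmb4, Psmb6 and Psmb11 were not called. Psmb5 (Entrez Gene 19173; chromosome 14, 54614120 to 54617995) encodes the subunit with the chymotrypsin-like site, the main target of proteasome inhibitor drugs. It was at 132, 128 and 131 CPM in static and 108, 101 and 113 CPM in stretched libraries, with no overlap. Its log2 fold change was -0.28 (SE 0.041, adjusted p = 4.909e-05), and -0.25 with the GC and length offset. The span of Psmb5 also holds Mir686, listed apart in the table with a log2 fold change of -0.39, so reads of the 2 genes may not be separable.

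The genes of the other protease sites were not called lower, and their changes were not tested against that of Psmb5. Psmb6, the gene of the caspase-like site, was at 136.8, 134 and 138.6 CPM in static and 129.9, 134.7 and 137.0 CPM in stretched libraries, and was not called. Its 95% interval ran from -0.11 to 0.05 in log2. Psmb7, the gene of the trypsin-like site, was at 161.2, 165.7 and 162.5 CPM and then at 172, 175.6 and 175.4 CPM. This gain of 0.10 in log2 (adjusted p = 0.0299) became -0.01 under the offset for GC and length (adjusted p = 0.821). It was not called without static replicate 1 or without any 1 stretched library either (adjusted p = 0.0599 to 0.116), nor with the replicate number as a block (adjusted p = 0.0533).

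Among the beta subunits without a protease site (Psmb1, Psmb2, Psmb3 and Psmb4), calls went both ways as well. Psmb1 was at 150.9, 166.7 and 150.3 CPM in static and 137.0, 137.8 and 148.3 CPM in stretched libraries (log2 fold change -0.14, adjusted p = 0.0173). Psmb2 was at 63.5, 62.8 and 61.7 CPM and then at 66.3, 66.7 and 70.7 CPM (0.11, adjusted p = 0.0282, and 0.0574 with the offset). Groups did not overlap, but their nearest libraries lay close together in both genes. Psmb1 was not called without stretch replicate 1 or 2 (adjusted p = 0.0941 and 0.0769) or with library size scaling, and Psmb2 was not without static replicate 1 or 3, stretch replicate 2 or 3 (adjusted p = 0.0512 to 0.129), or in DESeq2. Psmb3 and Psmb4 were not called, with log2 fold changes of 0.02 and -0.03. Psmb11, the thymus-type counterpart of Psmb5, had only 7 to 38 counts per library and was not called (95% interval -0.34 to 1.22). The immunoproteasome gene Psmb10, which is no member, was at 8.51 to 9.53 CPM in static and 8.12 to 9.16 CPM in stretched libraries and was not called. Psmb8 and Psmb9 were not analysed here.

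The antioxidant response element, to which NRF1 and its relative NRF2 bind, was searched as TGACNNNGC on both strands. It was present in the windows of 6 of the 40 member genes with a promoter (15%). Of the 11665 genes of the table with a window 16.4% held it, and of all 27025 such genes in RefSeq 14%. Of the 6 genes Psmb5 fell, Psmd12 and Psmc6 rose, and Psmb6, Psmd9 and Psme4 were not called. For comparison, 24.9% of all tested genes were called higher and 25.9% lower. With the GC and length offset Psmc6 was not called and Psme4 was called lower. The windows are shown because Nfe2l1 itself fell under stretch. The match of Psmd9 overlaps a GC box (GGGCGG), which 57.5% of member genes and 65.3% of the table's genes held. Capitals mark the match, which in reverse orientation is its complement read backwards.
Psmb5 (- strand gene, match in forward orientation, chr14:54618014-54618062): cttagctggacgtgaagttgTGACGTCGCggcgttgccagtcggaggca
Psmb6 (+ strand gene, match in forward orientation, chr11:70525328-70525376): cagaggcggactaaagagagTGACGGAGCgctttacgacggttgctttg
Psmc6 (+ strand gene, match in reverse orientation, chr14:45329577-45329625): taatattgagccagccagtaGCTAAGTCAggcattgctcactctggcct
Psmd12 (+ strand gene, match in reverse orientation, chr11:107479278-107479309): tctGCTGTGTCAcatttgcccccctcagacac
Psmd9 (+ strand gene, match in forward orientation, chr5:123228139-123228187): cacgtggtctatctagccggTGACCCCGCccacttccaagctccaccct
Psme4 (+ strand gene, match in reverse orientation, chr11:30771748-30771796): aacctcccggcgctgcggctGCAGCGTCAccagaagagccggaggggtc
Psmb5, the core gene with the largest fall, has its match at position -47 from the annotated start, in capitals in the whole window.
Psmb5 (- strand gene, chr14:54617946-54618245): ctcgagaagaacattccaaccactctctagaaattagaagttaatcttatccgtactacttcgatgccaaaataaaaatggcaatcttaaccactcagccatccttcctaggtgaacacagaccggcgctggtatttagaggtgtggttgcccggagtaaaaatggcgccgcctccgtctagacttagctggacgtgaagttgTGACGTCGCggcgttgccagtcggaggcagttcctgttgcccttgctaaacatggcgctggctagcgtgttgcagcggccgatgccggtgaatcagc

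**Figure D3:**
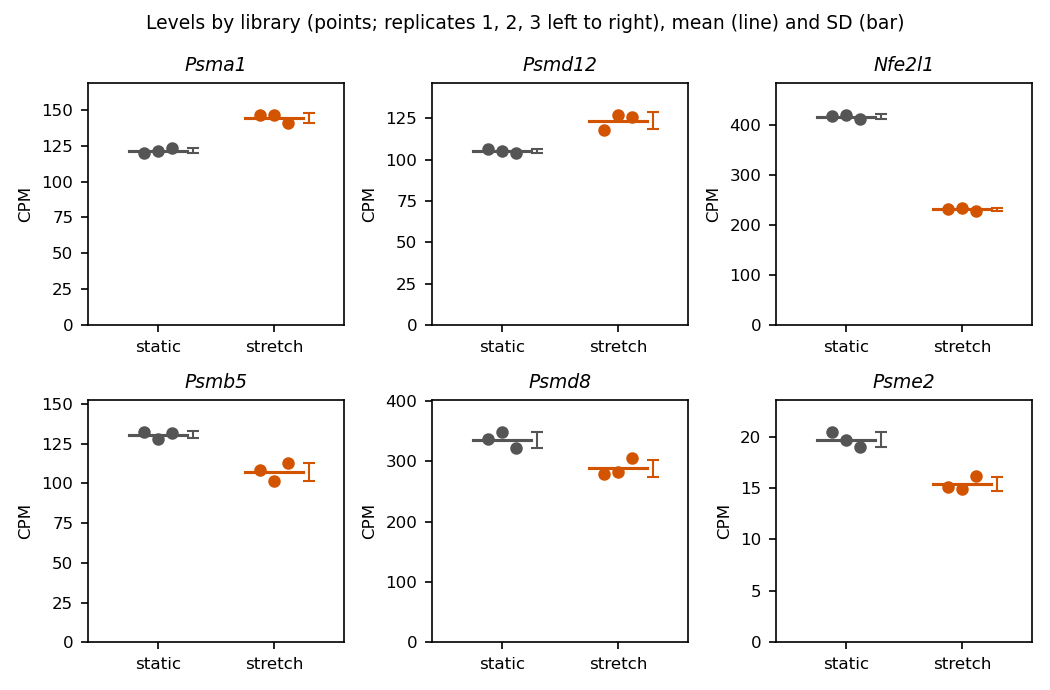
CPM in each library for 5 members and for Nfe2l1; grey points are static and orange points stretched libraries, lines are means and bars SDs (n = 3 per group), and each y axis starts at 0. Psma1 and Psmd12 are higher and Psmb5, Psmd8 and Psme2 lower in all stretched libraries, by less than the fall of Nfe2l1 from 417 to 231 CPM.

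In the cap, the ATPase genes stayed close to their static levels. Of the 6 genes, which encode the ring that unfolds substrates, only Psmc6 was called (16.7%, beside 50.9% of all tested genes). It was at 120.9, 130.4 and 121.7 CPM in static and 138.0, 134.8 and 138.8 CPM in stretched libraries (log2 fold change 0.14, adjusted p = 0.00607). Its value with the offset was -0.01 (adjusted p = 0.779). Psmc1, Psmc3, Psmc4 and Psmc5 had log2 fold changes of 0.01, -0.01, 0.04 and -0.03. Psmc2 had -0.05, and with the offset it was called lower (-0.14, adjusted p = 0.00592).

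The other cap subunits hold the ubiquitin receptors, the scaffold and the deubiquitinating lid. Of these 11 genes 3 rose (27.3%) and 4 fell (36.4%), beside 24.9% and 25.9% of all tested genes. Psmd12 (Entrez Gene 66997; chromosome 11, 107479528 to 107498036), a lid scaffold gene, was at 106.3, 104.9 and 104.3 CPM in static and 117.6, 127.2 and 125.7 CPM in stretched libraries. No libraries overlapped, and the log2 fold change was 0.23 (SE 0.039, adjusted p = 0.000198). With the offset it was 0.21.

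Psmd8 (Entrez Gene 57296; chromosome 7, 29174187 to 29180673), also a lid gene, moved the opposite way. It was at 336.0, 348.5 and 322.2 CPM in static and 277.9, 281.7 and 304.8 CPM in stretched libraries. The log2 fold change was -0.22 (SE 0.042, adjusted p = 0.000544), and -0.16 with the offset. In static cells it was the cap subunit with the highest level per kilobase of coding sequence, 317 ± 12.4 CPM per kilobase (SD, n = 3).

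The remaining called cap genes changed by 1.09-fold or less. Psmd14, the gene of the deubiquitinase, was at 99.6, 99.1 and 96.9 CPM in static and 106.1, 104.6 and 110.8 CPM in stretched libraries (0.12, adjusted p = 0.0138). Psmd7, whose product pairs with that of Psmd14, went the other way, from 185.3, 189.9 and 181.2 CPM to 167.2, 171.6 and 179.1 CPM (-0.10, adjusted p = 0.032). Psmd6 was at 71.1, 73.4 and 69.9 CPM and then at 76.1, 76.2 and 78.0 CPM (0.10, adjusted p = 0.0309). None of these groups overlapped, but Psmd14 and Psmd6 were not called with the offset. Single libraries also ended these calls: stretch replicate 3 for Psmd14 (adjusted p = 0.0714 without it), replicate 1 or 2 of either group for Psmd7 (0.0509 to 0.172), and any but static replicate 2 for Psmd6 (0.0695 to 0.102). Psmd6 and Psmd7 were not called with the replicate block either (adjusted p = 0.0553 and 0.0571). Psmd7 was not called with library size scaling (-0.04, adjusted p = 0.311), nor Psmd6 by DESeq2 (adjusted p = 0.0911).

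Psmd4, a ubiquitin receptor gene, was at 173.3, 177.5 and 168.1 CPM in static and 155.2, 160.6 and 162.6 CPM in stretched libraries (-0.12, adjusted p = 0.0157). Psmd13 was at 149.2, 160.4 and 147.7 CPM and then at 141.9, 139.4 and 140.6 CPM (-0.11, adjusted p = 0.0243). Neither was called with the offset or with library size scaling. Psmd4 was not called without static or stretch replicate 1 (adjusted p = 0.0553 and 0.0975), nor Psmd13 without static replicate 2 or any 1 stretched library (0.0617 to 0.082). The scaffold genes Psmd1 and Psmd2, the lid gene Psmd3 and Psmd11, whose product clamps the lid to the core, were not called, with log2 fold changes of -0.04, -0.03, 0.00187 and -0.05. With the offset Psmd11 was called lower (-0.17, adjusted p = 0.00129).

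The called activator genes were the 2 partners of one ring. Psme1 and Psme2 encode the subunits of the interferon-inducible activator that opens the core for peptide production. Psme2 (Entrez Gene 19188; chromosome 14, 55587440 to 55591101) was at 20.5, 19.7 and 18.96 CPM in static and 15.1, 14.9 and 16.2 CPM in stretched libraries. Its log2 fold change of -0.36 (SE 0.064, adjusted p = 0.000285), or 1.28-fold lower, was the largest change among the called members. Psme1 was at 30.5, 28.3 and 27.1 CPM and then at 25.8, 24.6 and 25.4 CPM (-0.17, adjusted p = 0.0186). With the offset it was -0.09 and not called (adjusted p = 0.2), and it was not called by DESeq2 (0.0523), with library size scaling (0.103), or without static replicate 1 (0.115) or stretch replicate 2 (0.0713). Neither gene overlapped between groups.

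The other activators were far more abundant or unlike in role, and none was called. Psme3, the gene of the nuclear activator of the same family, was at 327.8, 329.9 and 312.0 CPM in static and 318.3, 317.7 and 306.1 CPM in stretched libraries. Per kilobase of coding sequence it stood at 424 ± 12.8 CPM, against 27.5 ± 1.05 for Psme2 and 38.3 ± 2.29 for Psme1 (SD, n = 3 static libraries). Psme4, the gene of a large single-chain activator, had a log2 fold change of -0.01 (95% interval -0.09 to 0.07), and was called lower with the offset (-0.10, adjusted p = 0.041). Psmf1, a regulator that binds the core, and Psme3ip1, whose product binds that of Psme3, had -0.09 and -0.04. Psme2b, an intronless relative of Psme2, had 0 to 9 counts per library and was not tested. Counts of Psme2 and Psme2b share sequence, so their split is uncertain.

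Of the 7 assembly factor genes 1 was called higher (14.3%, beside 24.9% of all tested genes), and the groups of 5 overlapped. Groups did not overlap for 28.6% of these genes, beside 58.5% of all tested genes. The log2 fold changes of the 7 genes ran from 0.02 to 0.16. Psmg1, a chaperone gene of alpha ring assembly, was at 25.7, 24.5 and 25.7 CPM in static and 30.2, 26.3 and 27.8 CPM in stretched libraries (0.16, adjusted p = 0.0407). It was not called by DESeq2 (adjusted p = 0.109), or without static replicate 1 or 2 or stretch replicate 1 or 3 (0.0695 to 0.279). Psmg2, its partner, and Psmg3 and Psmg4, which form a second pair, had log2 fold changes of 0.09, 0.09 and 0.16. Psmd5, Psmd9 and Psmd10, chaperone genes of the ATPase ring that share the Psmd name, had 0.02, 0.02 and 0.09, and with the offset Psmd5 and Psmd10 had -0.02 each. Psmc3ip, taken by its symbol alone, encodes a meiotic recombination factor and no proteasome subunit. It was at 15.3, 18.4 and 15.8 CPM and then at 17.0, 19.97 and 18.3 CPM, and was not called.

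**Figure D4:**
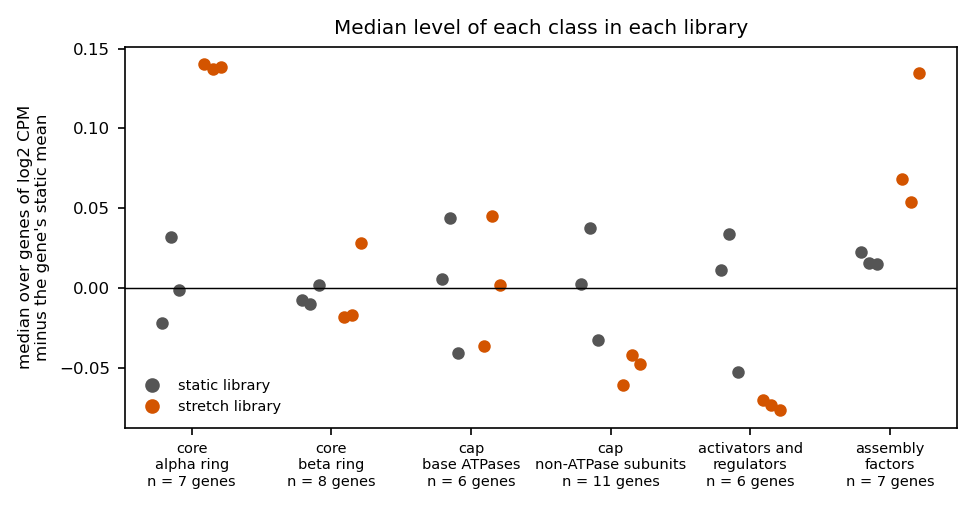
Median over the genes of a class of log2 CPM minus the gene's static mean, for each library; grey points are static and orange points stretched libraries, replicates 1 to 3 from left to right. Alpha ring medians are 0.14 in the 3 stretched libraries and -0.02 to 0.03 in the static ones, while those of the beta ring and the ATPases overlap between groups. Assembly factors lie higher, and the other cap subunits and the activators lower, in all stretched libraries. For the other cap subunits and the activators the nearest libraries of the groups lie close together.

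Seen per library, the stretched samples gave nearly equal medians for the alpha ring. The median over its genes of log2 CPM, minus each gene's static mean, was 0.140, 0.137 and 0.138 in the stretched libraries and -0.022, 0.032 and -0.001 in the static ones. For the beta ring it was -0.018, -0.017 and 0.028 in stretched and -0.007, -0.010 and 0.002 in static libraries. The ATPases overlapped too, with -0.036, 0.045 and 0.002 against 0.006, 0.044 and -0.041. Assembly factors were at 0.068, 0.054 and 0.135 under stretch and at 0.022, 0.016 and 0.015 in static cells. The other cap subunits were at -0.0608, -0.0419 and -0.0479 under stretch and at 0.0025, 0.0377 and -0.033 in static cells. Activators and regulators were at -0.0703, -0.0732 and -0.0768 under stretch and at 0.0111, 0.0335 and -0.0528 in static cells. In both of these classes all stretched libraries lay below all static ones. The nearest libraries of the groups lay closer than the pooled SD, 0.0259 for these cap subunits and 0.0317 for the activators. With library size as the only scaling, the median log2 fold change was -0.0063 for the activators and 0.0325 for the whole cap. These values rest on the chosen genes and were not tested.

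Levels per length differed between subunit genes. Per kilobase of coding sequence, the static alpha ring ran from 125 ± 4.39 for Psma4 to 229 ± 3.82 CPM for Psma7, a ratio of 1.83. The beta ring without Psmb11 ran from 104 ± 1.48 for Psmb2 to 249 ± 6.81 for Psmb4, a ratio of 2.40. The ATPases ran from 107 ± 4.49 for Psmc6 to 203 ± 7.19 for Psmc1, a ratio of 1.90. The other cap subunits spread further on this scale, from 61.2 ± 1.56 for Psmd6 to 317 ± 12.4 for Psmd8, a ratio of 5.17. Per kilobase of the longest transcript they did not. There the ratios were 3.28 for these subunits, 3.45 for the alpha ring, 3.22 for the ATPases and 2.91 for the beta ring. Between the activators Psme2 and Psme3 the ratio was 15.4 by coding sequence. By longest transcript Psme2 stood at 20.5 ± 0.781 and Psme3 at 121 ± 3.67 CPM per kilobase. Neighbours in these orders, such as Psma5 (155 ± 6.49) and Psma1 (154 ± 2.21), often did not differ beyond their spread.

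Under stretch Psma3 was at 239 ± 3.69 and Psma7 at 221 ± 3.79 CPM per kilobase of coding sequence. Per kilobase of the longest transcript Psma3 stayed below Psma7 (64.3 ± 0.991 against 109 ± 1.86), and with the offset the change of Psma3 was 0.03 in log2, beside 0.04 for Psma7. Per kilobase of coding sequence, assembly factors ran from 26.5 ± 1.03 to 61.4 ± 2.32 CPM in static cells. They lay below the alpha ring, the ATPases and the beta ring without Psmb11, but reached the cap subunit Psmd6 (61.2 ± 1.56). By longest transcript they did not reach it. There the highest assembly factor, Psmg1, was at 24.2 ± 0.681 and Psmd6 at 51.5 ± 1.31 CPM per kilobase. Per kilobase of the longest transcript the alpha ring ratio was 3.45, with Psma2 lowest, because that gene's model has 2911 bases for a coding sequence of 702. These orders thus depend on which transcript the cells use, which was not measured. The sum over core genes per kilobase of coding sequence was 2512 ± 31.0 in static and 2583 ± 31.3 CPM in stretched cells, and that over cap genes 2565 ± 65.3 and 2508 ± 39.6 (SD, n = 3).

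Among genes that control the complex, Nfe2l1 had the largest change. It was at 417, 421 and 412 CPM in static and 232, 234 and 228 CPM in stretched libraries, and thus fell 1.80-fold (log2 fold change -0.85, SE 0.033, adjusted p = 1.083e-10). Across the alternative fits its log2 fold change ran from -0.86 to -0.77, and it passed glmTreat against 1.2-fold (adjusted p = 1.708e-09). Nfe2l2, the gene of NRF2, was at 134, 135 and 132 CPM and then at 137, 134 and 135 CPM, and was not called (95% interval -0.06 to 0.09).

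The list of NRF1 control genes held 12 tested genes, of which 7 fell (58.3%) and none rose (median -0.22). Of all tested genes 25.9% were lower and 24.9% higher. This list and the lists below were chosen with earlier results of these data known, so these shares are descriptions and were not tested. NRF1 is made in the endoplasmic reticulum membrane, pulled out by the ligase complex of Syvn1 and Sel1l with the ATPase Vcp, stripped of sugars by Ngly1 and cut by Ddi2. Sel1l was at 286.3, 277.5 and 289.4 CPM in static and 173.0, 172.3 and 162.6 CPM in stretched libraries (-0.75, adjusted p = 1.106e-09). Syvn1, Vcp and Ngly1 fell with log2 fold changes of -0.41, -0.36 and -0.21, while Ddi2 was not called (0.07). Ngly1 was not called without static replicate 1 or stretch replicate 2 (adjusted p = 0.0647 and 0.0598) or with library size scaling (0.063). The genes of the small MAF partners Mafg and Mafk fell (-0.37 and -0.23), and Maff, at about 3 CPM, was not called. Fbxw7 and Btrc, ligase genes that mark NRF1 for degradation, were not called without the offset, and Btrc was called lower with it (-0.18, adjusted p = 0.00318).

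Of 12 tested proteasome partners named otherwise, 3 were called higher (25%) and 4 lower (33.3%), shares near the 24.9% and 25.9% of all tested genes (median -0.01). Paaf1 was not analysed here. Uchl5 and Usp14 encode deubiquitinases that dock on the cap. Uchl5 was at 41.7, 45.02 and 44.3 CPM in static and 53.2, 53.7 and 52.9 CPM in stretched libraries (0.29, adjusted p = 6.549e-05). Usp14 was at 90.0, 93.4 and 90.0 CPM and then at 104.8, 108.3 and 107.9 CPM (0.23, adjusted p = 0.000103). Both stayed called with the offset, at 0.16 and 0.11.

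Adrm1, the gene of the cap's ubiquitin receptor that recruits the Uchl5 product, was at 196.2, 180.0 and 190.2 CPM in static and 175.1, 175.4 and 175.7 CPM in stretched libraries (-0.11, adjusted p = 0.0283). With the offset it was -0.02 and not called, nor was it called without static replicate 1 or any 1 stretched library (adjusted p = 0.0675 to 0.16). Akirin2, which carries proteasomes into the nucleus, was at 68.4, 73.0 and 66.8 CPM and then at 65.5, 61.5 and 64.1 CPM (-0.12, adjusted p = 0.0354). It was not called by DESeq2, with library size scaling (-0.06), or without static replicate 1 or 2 or stretch replicate 2 or 3 (adjusted p = 0.0664 to 0.143). Zfand2a and Pithd1 also fell (-0.14 each), although the groups of Pithd1 overlapped. With the offset neither was called (-0.09, adjusted p = 0.186, and -0.08, adjusted p = 0.245), nor was either by DESeq2, with library size scaling or without static replicate 1. Pomp, the maturation chaperone of the beta ring, was at 106.6, 109.7 and 102.3 CPM and then at 115.7, 113.7 and 118.3 CPM (0.13, adjusted p = 0.0118, and 0.0545 without stretch replicate 3). Sem1, Ecpas, Ube3c, Txnl1 and Zfand5 were not called, and Txnl1 and Zfand5 were lower with the offset (-0.13 and -0.16).

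Of 19 genes of ubiquitin supply and delivery, 7 fell (36.8%) and 2 rose (10.5%), beside 25.9% and 24.9% of all tested genes (median -0.04). Nploc4, a cofactor of Vcp, was at 277.3, 267.1 and 272.2 CPM in static and 243.3, 246.4 and 241.6 CPM in stretched libraries (-0.16, adjusted p = 0.00114, and 0.058 with the offset). The lower genes also included Ubb, Rad23b, Ubqln2, Usp5 and Stub1, with log2 fold changes of -0.10 to -0.23. The higher ones were Rps27a, a ubiquitin and ribosomal protein fusion gene (492, 504 and 493 CPM, then 549, 545 and 582 CPM), and the ligase gene Ube3a (120.6, 119.7 and 114.5 CPM, then 132.3, 131.6 and 126.4 CPM). Neither was called higher with the offset, where Rps27a had 0.05 and Ube3a -0.09. With the offset Usp5 and Stub1 were not called (-0.06 and 0.03), while Ube2d3 (-0.32, adjusted p = 0.000255), Uba6 (-0.28, adjusted p = 0.000447) and Usp9x (-0.16, adjusted p = 0.0111) were called lower. Stub1 was also not called without static replicate 1 or stretch replicate 1 or 2 (adjusted p = 0.0647 to 0.126).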

How the data were processed

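RNA was sequenced from 3 static and 3 stretched samples. Library preparation followed the sequencing provider's usual protocol, per the labels' protocols. For strand and RNA selection, nothing is given in the sources used here. The authors deposited estimated counts per gene as unscaled whole numbers. The submitters' processing notes name Salmon 1.4.0, mm10 and GRCm38. Salmon divides reads among similar transcripts by a model, which adds uncertainty for near copies. No gene of the table had fewer than 10 counts in total over the 6 libraries.

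Symbols came from RefSeq GRCm38.p6, which matched 14875 of 14883 Entrez numbers. The other 8 held at most 0.0825% of counts. In edgeR 4.0.16 (R 4.3.3), filterByExpr with a minimum count of 10 kept 12377 genes. Libraries were scaled by TMM. The rounded counts were tested for the group, with no covariate, by the quasi-likelihood test (two-sided, 4 residual degrees of freedom), with a biological coefficient of variation of 3.6%. An exact test of 3 against 3 samples cannot go below p = 0.1. Intervals of 95% use the SE of the model. Replicates differed by more than counting noise in every pair. Lengths and GC content came from the longest GENCODE M21 transcript (99.2% of tested genes), coding lengths from the longest coding sequence.

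The alternatives, one at a time, were RLE factors, library size as the only scaling, no count filter, a minimum of 5 CPM in 3 libraries, DESeq2 1.42.0, glmTreat at 1.2-fold, a replicate block, a spline offset (5 degrees of freedom) on GC content and log2 length, and each library left out. The intervals within 1.2-fold and the coding lengths were added after values were seen. The procedure was tested on simulated counts. Members and lists were chosen with earlier results of these data known. Each member is named. Values per library are given for up to 4 called genes per class and direction, and 2 per further list and direction, by lowest p, and for Nfe2l1, Nfe2l2, Pomp, Adrm1, Usp14, Uchl5, Psmb10 and Psmc3ip. The values of 1 gene that this rule takes are not reported here. Values of Psma7, Psmb6 and Psme3 were added for contrast after they were seen. Spans of 10 members overlap another gene of the table.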

Additional observations from a re-analysis of the deposited data

How the results depend on the processing

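Of the 21 called members 5 kept their call in all alternatives but glmTreat: Psma1, Psmd12, Psmb5, Psmd8 and Psme2. The share of all called genes that did so is not given here, so this count cannot be read as particular to the members. With glmTreat against 1.2-fold the members called higher and lower were 0 and 0, and so were those of the core, cap, activators and assembly factors. With the GC and length offset 4 members were higher, 2 of the core and 1 of the cap, and the core median was 0.0279. Psmb7 and Psmc6 changed sign there (-0.0111 and -0.0148), as did Usp9x, Ube3a and Stub1 (-0.1568, -0.0889 and 0.0261). The cause was not tested. With library size only, 3 members were lower (1 in the core, 1 in the cap, 1 activator) and 3 assembly factors higher, and the medians were 0.0787 for all members, 0.1744 for the core, 0.0325 for the cap, -0.0063 for activators and 0.1479 for assembly factors. DESeq2 called 1 activator lower and 0 assembly factors higher, beside 22.3% and 20.4% of all tested genes. Without a count filter 0 assembly factors were higher, beside 20.1% of all tested genes.

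Leaving out each library, 7 to 13 members were higher (8 without static replicate 1, 7 without stretch replicate 3) and 4 to 9 lower (5 without static replicate 1, 4 without stretch replicate 1 or 2). In the core 5 to 8 were higher and 1 to 2 lower, with a median of 0.0902 to 0.1141. In the cap 2 to 4 were higher and 1 to 4 lower. Of the activators 1 to 3 were lower, with a median of -0.1071 to -0.0308, and of the assembly factors 0 to 1 was higher. In the same fits 20% to 24.8% of all tested genes were higher and 21.6% to 26.2% lower. With the replicate block 11 members were higher and 7 lower, beside 23.6% and 24.6% of all tested genes. Same-numbered samples had correlations of deviations of -0.012, 0.005 and -0.077. These values show no shared shift, and cannot tell whether such samples were handled together.

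The SD between genes of log2 levels per length depended on the length used. With coding length it was, in static cells, 0.3392 for the alpha ring and 0.4223 for the beta ring. It was 0.3539 for the ATPases and 0.6553 for the other cap genes. In stretched cells it was 0.2863, 0.4152 and 0.3228 for the first 3 of these classes. With the longest transcript the static values were 0.627, 0.586, 0.748 and 0.613 in the same order, so that the ATPases had the largest. Genes called in neither fit changed sign 54 times over 28 genes, 31 of these with the offset or with library size only. At these depths the median SE of a member was 0.039 in log2.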
